A study of Mus musculus with 11 samples.

Results

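Transcription factors that pattern the ganglionic eminences (GE), the ventral part of the embryonic forebrain, were followed in cultured neural progenitor cells (NPCs) in which *Smg6*, a nuclease of nonsense-mediated mRNA decay, was deleted. The 8 genes *Gsx1*, *Gsx2*, *Nkx2-1*, *Lhx6*, *Lhx8*, *Sp8*, *Sp9* and *Meis2* were taken as a named list from 53801 counted genes, by symbol. NPCs from brains of E13.5 mouse embryos, of a strain recorded as C57BL/6 mixed with 129SV, gave 11 libraries of ribosome-depleted total RNA, and every embryo carried the *Smg6* Flox/Flox alleles. The Ctr group held RosaCreER tg/+ cells of 3 embryos without treatment. The Ctr + 4-OHT group held RosaCreER +/+ cells of 4 embryos given 1 µM 4-hydroxytamoxifen (4-OHT), the ligand that activates CreER. The *Smg6*-iKO group held RosaCreER tg/+ cells of 4 embryos given the same dose. 4-OHT was present for 3 days per the labels, and RNA was isolated 6 days after treatment per the methods of the study. Embryos SMH_128, SMH_132 and SMH_133 gave both a Ctr and a *Smg6*-iKO library.

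None of the comparisons isolates the deletion. *Smg6*-iKO and Ctr differ in 4-OHT and in the deletion, *Smg6*-iKO and Ctr + 4-OHT differ in CreER and in the deletion, and Ctr + 4-OHT and Ctr differ in 4-OHT and in CreER. The Rosa26 promoter drives CreER in all cells. For these cultures the study names embryo brains as the source and no region, so cells of the GE and of the cortex (CTX) may have been cultured together. In bulk RNA, fewer cells of a type and less RNA per cell cannot be told apart.

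The GE are the birthplace of the GABAergic neurons of the forebrain. The medial eminence (MGE) gives rise to many cortical interneurons and to cholinergic and GABAergic neurons of the basal ganglia, the lateral eminence (LGE) to striatal and olfactory bulb neurons, and the caudal eminence (CGE) to further cortical interneurons. *Gsx1* and *Gsx2* encode homeodomain proteins that act in dividing progenitors, and *Gsx2* keeps the LGE from taking a cortical identity. *Nkx2-1* sets the identity of the MGE, where it acts upstream of the LIM homeobox genes *Lhx6*, needed for the migration and subtype choice of interneurons, and *Lhx8*, needed for cholinergic neurons. The zinc finger genes *Sp8* and *Sp9* act in progenitors and young neurons of the LGE and CGE, and *Meis2*, a TALE homeodomain gene, is expressed widely in the LGE and its striatal descendants.

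*Sp8* and *Sp9* are sister genes with related DNA-binding domains, and their fold changes had opposite signs in each comparison, although *Sp9* was not called in any, so windows of 250 bases that precede an annotated start of each are shown. Both come from RefSeq on GRCm38.p6, plus strand. Capitals mark the longest run of letters that both windows share, sought after the values were seen. *Sp8* has 3 annotated starts, and the window shown, at chr12:118846983-118847232, precedes the middle one and shares the longest run. The *Sp9* window is at chr2:73271676-73271925.
Sp8: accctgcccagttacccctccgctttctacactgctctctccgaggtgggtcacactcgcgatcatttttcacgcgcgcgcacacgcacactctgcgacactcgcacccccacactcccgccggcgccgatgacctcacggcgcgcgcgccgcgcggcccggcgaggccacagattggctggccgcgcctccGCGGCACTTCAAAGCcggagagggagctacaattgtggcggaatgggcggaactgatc
Sp9: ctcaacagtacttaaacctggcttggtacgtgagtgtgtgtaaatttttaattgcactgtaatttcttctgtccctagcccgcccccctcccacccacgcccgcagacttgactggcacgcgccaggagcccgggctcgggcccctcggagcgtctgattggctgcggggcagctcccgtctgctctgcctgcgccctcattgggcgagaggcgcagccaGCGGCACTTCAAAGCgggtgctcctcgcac
The shared run was 15 bases long and occurred, on either strand, in 2 of 32851 such windows of all genes, those of *Sp8* and *Sp9*. It ended 43 bases before the *Sp8* start and 15 bases before the *Sp9* start. Upstream of it the CCAAT box, read as ATTGG on the plus strand, occurred 1 time in the *Sp8* window and 2 times in the *Sp9* window, and 33.8% of all windows held it on either strand. The GC box GGGCGG, read on either strand, occurred 1 time in each, and 32.7% of all windows held it. These matches describe the letters alone. The homeodomain core TAATTA was found in 1 of the 12 windows of the 8 genes, that of the most downstream *Sp8* start, against 4.84% of all windows, and the MEIS core TGACAG in 1 of 12, that of the most upstream *Sp8* start, against 15.9% of all windows.

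Totals were between 26418249 and 33756875 counts per library. *Smg6* itself was read over the whole gene and not over the deleted part, which does not check the deletion. Its level was 69.4 to 79.4 CPM in Ctr, 66.5 to 72.3 CPM in Ctr + 4-OHT and 62.3 to 71.9 CPM in *Smg6*-iKO, where CPM are counts per 1000000 counts after TMM normalization, a scaling that balances the bulk of genes between libraries. Progenitor markers were abundant, with summed levels of 12 genes between 5548 and 7191 CPM. All 12 dorsal forebrain genes were detected, whereas 4 of 18 *Hox* genes were at 0 in every library and the summed *Hox* level did not exceed 0.285 CPM. Microglial genes summed to at most 3.88 CPM. The 8 endothelial and mural genes, mostly *Col3a1*, summed to between 236 and 1242 CPM in *Smg6*-iKO and to between 310 and 445 CPM in Ctr, so libraries varied in them widely. Their part in the results below was not tested.

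All 8 factors were detected in every library, but at very different levels. *Meis2* gave 5966 to 8614 counts per library, *Lhx6* 416 to 640, *Sp8* 168 to 357, *Sp9* 120 to 267, *Gsx2* 66 to 121, *Lhx8* 46 to 91, *Nkx2-1* 20 to 50 and *Gsx1* 11 to 32. *Meis2* alone held 86.2% of the summed CPM of the list. Per exonic length, as RPKM (CPM divided by exonic length in kilobases, mean ± SD over 11 libraries), the order was led by *Meis2* at 20.6 ± 1.75, above 86.0% of the 18123 genes kept. *Lhx6* followed at 3.52 ± 0.431 RPKM. *Sp8* at 2.03 ± 0.375 and *Gsx2* at 1.84 ± 0.407 RPKM were neighbours that did not separate, with *Sp8* the higher in 7 of 11 libraries. *Sp9* at 1.24 ± 0.274 RPKM lay below *Gsx2* in 10 of 11 libraries, and *Lhx8* at 0.875 ± 0.190 RPKM lay below *Sp9* in 10 of 11. The 2 lowest, *Gsx1* at 0.406 ± 0.120 and *Nkx2-1* at 0.402 ± 0.111 RPKM, did not separate either.

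**Figure D1:**
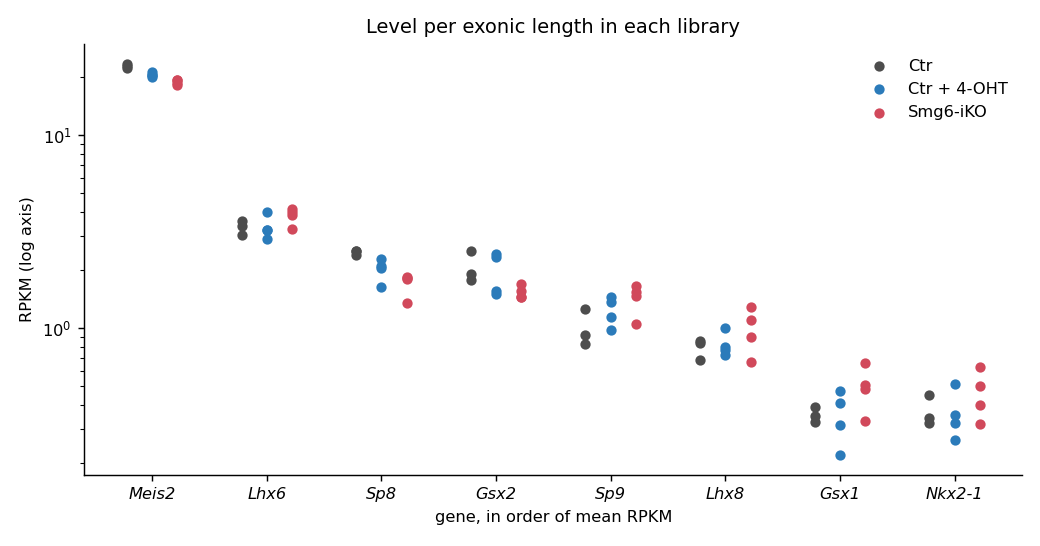
RPKM (CPM per kilobase of exon, log axis) of each of the 8 factors in each of the 11 libraries, by group, in order of the mean. *Meis2* lies far above the rest, from 18.2 to 23.6 RPKM, while *Gsx1* and *Nkx2-1* lie between 0.219 and 0.662 RPKM.

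The spread between libraries of one group was smallest for the most deeply counted gene and largest for the 2 least counted. The pooled SD of log2 CPM within groups was 0.041 for *Meis2*, against 0.017 from counting error alone, and the median over all genes kept was 0.16. It was 0.16 for *Lhx6* and 0.18 for *Sp8*. It was 0.26 for *Gsx2*, 0.28 for *Sp9*, 0.29 for *Lhx8*, and 0.36 for both *Gsx1* and *Nkx2-1*. For *Gsx1* the counting error was 0.33, so the sampling of few reads made up a large part of its spread. The gap between 0.33 and 0.36 is not the spread between libraries, since SDs do not add. For *Sp9*, whose counting error was 0.11, most of the spread was between libraries. The counts behind *Gsx1* and *Nkx2-1* therefore limit any statement on them.

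**Figure D2:**
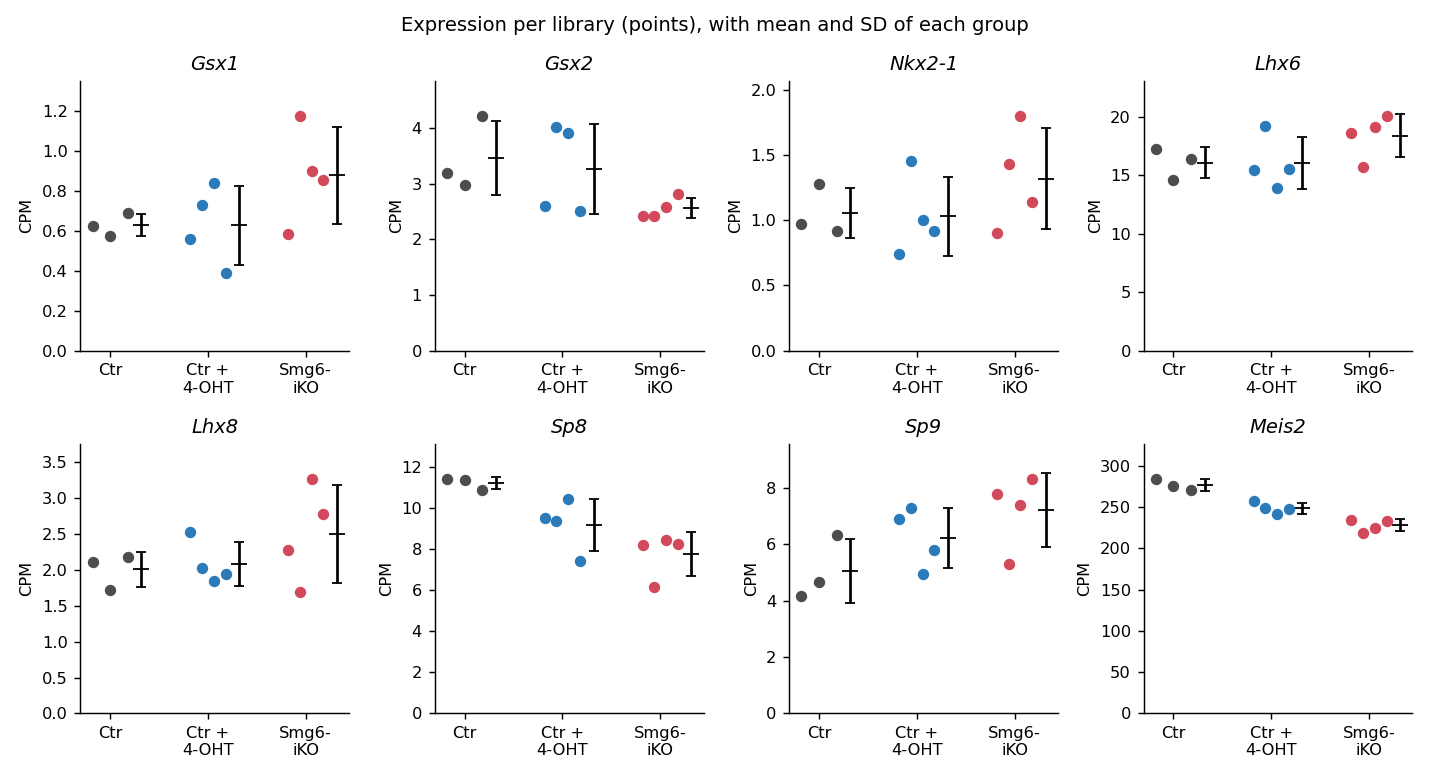
CPM of each factor (vertical axis from 0) in each library, with embryos in rising number within a group, and the mean ± SD of each group in black. The groups of *Meis2* do not overlap, those of *Sp8* overlap only between Ctr + 4-OHT and *Smg6*-iKO, and the other 6 genes overlap in every comparison except *Gsx2* in *Smg6*-iKO against Ctr.

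In *Smg6*-iKO against Ctr, which asks how treated CreER cells differ from untreated cells of the same genotype, 2 of the 8 factors fell at an adjusted p under 0.05, *Sp8* and *Meis2*, and none rose. Over all 17974 genes tested, 9.25% were called, and 4.98% were called lower. The count of the factors rests on 2 genes. Of all genes called, 767 were higher and 896 lower, and 1089 higher and 694 lower with upper-quartile normalization. The median log2 fold change of the 8 was 0.25, against 0.0055 over all genes tested, with 5 values positive and 3 negative.

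*Sp8* (ENSMUSG00000048562, chr12:118846329-118852576, plus strand of GRCm38), a factor of LGE and CGE progenitors, stood at 11.4, 11.4 and 10.9 CPM in Ctr embryos SMH_128, SMH_132 and SMH_133, and at 8.22, 6.16, 8.44 and 8.26 CPM in *Smg6*-iKO embryos SMH_127, SMH_128, SMH_132 and SMH_133. The groups did not overlap, and *Smg6*-iKO embryo SMH_128 was the lowest of all. The fitted level fell by 30.8%, with a log2 fold change of -0.53 (SE 0.12, 95% interval -0.79 to -0.28, adjusted p = 0.0208 by edgeR). The call was lost without Ctr embryo SMH_128 (-0.52, adjusted p = 0.0761), without Ctr embryo SMH_132 (-0.53, adjusted p = 0.072) and without *Smg6*-iKO embryo SMH_133 (-0.56, adjusted p = 0.0514), each by edgeR, while the fold change stayed close to that of all libraries. It passed without *Smg6*-iKO embryo SMH_128 (-0.44, adjusted p = 0.0127 by edgeR).

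*Meis2* (ENSMUSG00000027210, chr2:115863064-116065839, minus strand), the most abundant factor of the list, stood at 284, 275 and 270.1 CPM in Ctr embryos SMH_128, SMH_132 and SMH_133, and at 234, 219, 225 and 233 CPM in *Smg6*-iKO embryos SMH_127, SMH_128, SMH_132 and SMH_133. Every *Smg6*-iKO library lay below every Ctr library. The fitted level fell by 17.6%, with a log2 fold change of -0.28 (SE 0.051, 95% interval -0.39 to -0.17, adjusted p = 0.0103 by edgeR). Without Ctr embryo SMH_128 the log2 fold change was -0.26, with an adjusted p of 0.0503 by edgeR.

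*Sp9* (ENSMUSG00000068859, chr2:73271925-73284706, plus strand) had higher values instead. It stood at 4.16, 4.67 and 6.31 CPM in Ctr embryos SMH_128, SMH_132 and SMH_133, and at 7.79, 5.32, 7.40 and 8.32 CPM in *Smg6*-iKO embryos SMH_127, SMH_128, SMH_132 and SMH_133. The groups overlapped, since *Smg6*-iKO embryo SMH_128 lay below Ctr embryo SMH_133, while the other 3 *Smg6*-iKO libraries lay above all Ctr libraries. The log2 fold change was 0.52 (SE 0.18, 95% interval 0.12 to 0.92), which did not pass with an adjusted p of 0.0937 by edgeR. It passed when the embryo was a block in the fit (0.48, adjusted p = 0.00545, with 21.4% of all genes called), with DESeq2 (adjusted p = 0.0343, with 16.9% called), without a filter on low counts (adjusted p = 0.00411) and without *Smg6*-iKO embryo SMH_128 (0.64, adjusted p = 0.0259). A gene on the opposite strand, *Cir1*, shares 270 of the 5044 exonic bases of *Sp9* (5.35%). Reads were counted by strand, and *Cir1* had a log2 fold change of -0.27 (adjusted p = 0.248 by edgeR).

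*Gsx2* (ENSMUSG00000035946, chr5:75075601-75077893, plus strand), the progenitor factor of the LGE, stood at 3.19, 2.97 and 4.21 CPM in Ctr embryos SMH_128, SMH_132 and SMH_133, and at 2.42, 2.42, 2.59 and 2.82 CPM in *Smg6*-iKO embryos SMH_127, SMH_128, SMH_132 and SMH_133. The groups did not overlap. The log2 fold change of -0.43 (SE 0.16, 95% interval -0.77 to -0.085) had an adjusted p of 0.107 by edgeR and the smallest value that the two-sided exact permutation test can give, 0.0286. That test took the libraries as unpaired, although embryos SMH_128, SMH_132 and SMH_133 gave a library of each group, so its value is not exact here. Over the 3 genes, *Gsx2*, *Sp8* and *Meis2*, whose groups did not overlap, the background was 23.2% of all genes kept.

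The factors of the MGE and *Gsx1* did not pass. *Nkx2-1* (chr12:56531958-56536908, minus strand) had values of 0.971, 1.28 and 0.918 CPM in Ctr embryos SMH_128, SMH_132 and SMH_133 and 0.904, 1.43, 1.797 and 1.14 CPM in *Smg6*-iKO embryos SMH_127, SMH_128, SMH_132 and SMH_133, with overlap (log2 fold change 0.30, interval -0.27 to 0.86, adjusted p = 0.496 by edgeR). *Lhx6* (chr2:36081953-36105408, minus strand) lay at 17.2, 14.6 and 16.4 CPM in Ctr and 18.7, 15.7, 19.2 and 20.1 CPM in *Smg6*-iKO, embryos in the same order (0.20, interval -0.018 to 0.41, adjusted p = 0.222 by edgeR). For this gene 3 of 4 *Smg6*-iKO libraries exceeded all Ctr libraries. *Lhx8* (chr3:154306294-154330659, minus strand) lay at 2.12, 1.73 and 2.18 CPM in Ctr and 2.27, 1.69, 3.27 and 2.78 CPM in *Smg6*-iKO (0.32, interval -0.16 to 0.80, adjusted p = 0.374 by edgeR). *Gsx1* (chr5:147188696-147190947, plus strand) lay at 0.624, 0.575 and 0.689 CPM in Ctr and 0.583, 1.17, 0.898 and 0.854 CPM in *Smg6*-iKO (0.47, interval -0.12 to 1.05, adjusted p = 0.286 by edgeR). At this depth the interval of *Gsx1* allowed values between a small decrease and a difference of 1.05 on the log2 scale.

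**Figure D3:**
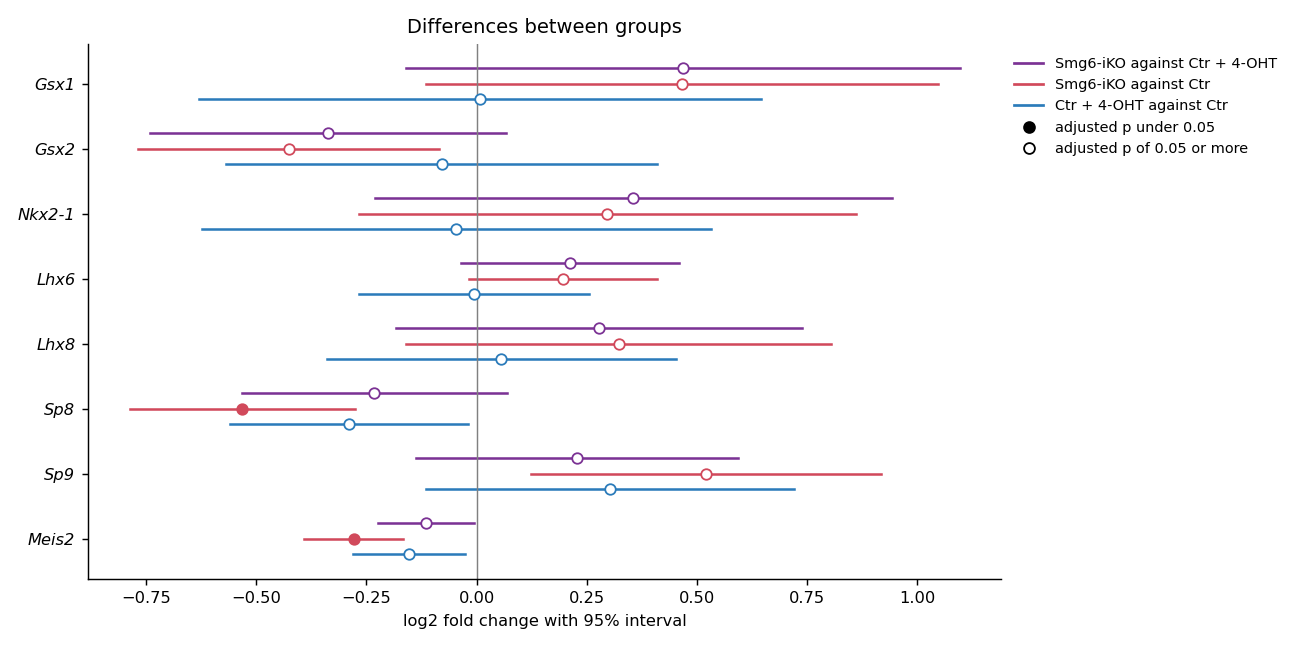
Log2 fold change (horizontal axis) of each factor in the 3 comparisons, with 95% intervals, filled where the adjusted p was under 0.05. Only *Sp8* (-0.53) and *Meis2* (-0.28) in *Smg6*-iKO against Ctr are filled, and the intervals of *Gsx1*, *Nkx2-1*, *Lhx6* and *Lhx8* span 0 in all 3.

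Because 3 embryos gave a library of each group, the difference was also taken within embryos, which removes what the embryos differ in. *Sp8* was lower in 3 of 3 embryos, with -0.89, -0.43 and -0.40 in embryos SMH_128, SMH_132 and SMH_133 on the log2 CPM scale. *Meis2* was lower in 3 of 3, with -0.38, -0.29 and -0.21. *Gsx2* was lower in 3 of 3, with -0.39, -0.20 and -0.57. *Sp9* was higher in 3 of 3 embryos, with 0.35, 0.66 and 0.39, and *Gsx1* and *Nkx2-1* were also higher in 3 of 3, with means of 0.57 ± 0.28 and 0.43 ± 0.12 (SD, n = 3). *Lhx6* and *Lhx8* were lower in embryo SMH_128 and higher in embryos SMH_132 and SMH_133. Thus 6 of 8 factors had one direction in 3 of 3 embryos, as did 51.5% of all genes kept. With 3 embryos these are descriptions.

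**Figure D4:**
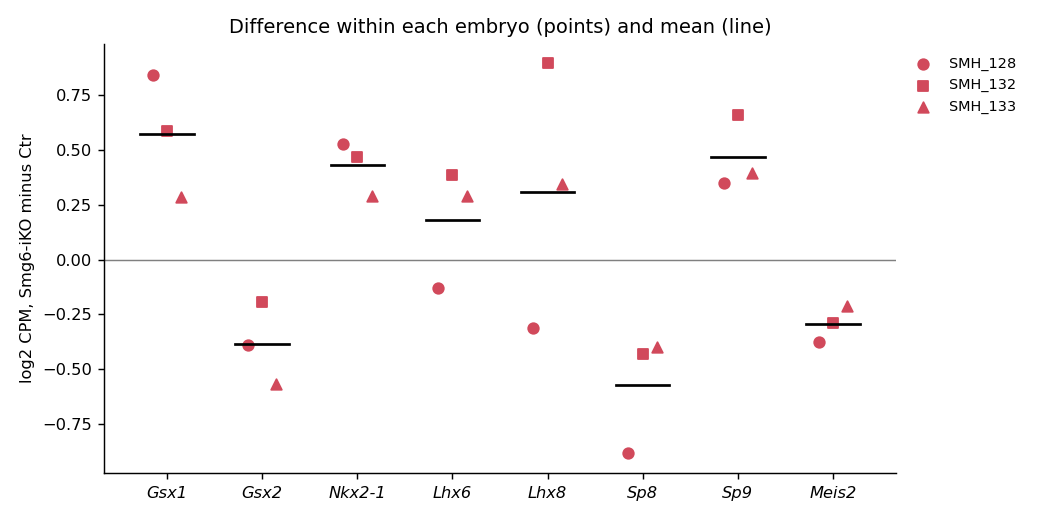
Difference in log2 CPM between the *Smg6*-iKO and the Ctr library of each of 3 embryos (points, by embryo) and their mean (line) for each factor. *Sp8*, *Meis2* and *Gsx2* lie below 0 in every embryo, and *Sp9*, *Gsx1* and *Nkx2-1* above it.

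Against Ctr + 4-OHT, the control that received the drug but has no CreER, none of the 8 factors was called. Of 17558 genes tested, 1.17% were called. By edgeR, 1 of the 8, *Meis2*, had an unadjusted p under 0.05, against 16.7% of all genes tested. DESeq2 called none of the 6 to which it gave an adjusted p, and it gave none to *Gsx1* and *Nkx2-1*. Of the 14401 genes with an adjusted p, DESeq2 called 6.06%. *Meis2* stood at 257, 248, 241 and 248 CPM in Ctr + 4-OHT embryos SMH_125, SMH_126, SMH_129 and SMH_131, all above the 4 *Smg6*-iKO libraries (10.8% of all genes kept did not overlap). Its log2 fold change was -0.12 (SE 0.049, interval -0.22 to -0.0067, adjusted p = 0.269 by edgeR). *Sp8* stood at 9.53, 9.38, 10.5 and 7.45 CPM in the same Ctr + 4-OHT embryos, with a log2 fold change of -0.23 (interval -0.53 to 0.069) and overlapping groups. *Sp9* stood at 6.89, 7.28, 4.94 and 5.79 CPM, with 0.23 (interval -0.14 to 0.59). *Gsx2* split within the control, at 2.61, 4.02, 3.91 and 2.51 CPM in embryos SMH_125, SMH_126, SMH_129 and SMH_131, of which embryos SMH_126 and SMH_129 lay above all *Smg6*-iKO libraries, and gave -0.34 (interval -0.74 to 0.066). The other 4 factors overlapped, with Ctr + 4-OHT ranges of 0.389 to 0.840 CPM for *Gsx1*, 0.744 to 1.46 CPM for *Nkx2-1*, 14.0 to 19.2 CPM for *Lhx6* and 1.84 to 2.53 CPM for *Lhx8*. All 4 had positive values, with *Gsx1* at 0.47 (interval -0.16 to 1.10), *Nkx2-1* at 0.36 (interval -0.23 to 0.94), *Lhx8* at 0.28 (interval -0.18 to 0.74) and *Lhx6* at 0.21 (interval -0.036 to 0.46). Intervals this wide leave changes of the size seen against Ctr possible for *Sp8* and *Sp9*.

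Ctr + 4-OHT against Ctr asks what the drug and the missing CreER carry with them. None of 8 factors was called by edgeR or DESeq2, which called 0.221% of 17665 and 0.825% of 20487 genes. By edgeR, 2 of 8 had an unadjusted p under 0.05, against 8.28% of all genes tested. These were *Sp8* (-0.29, SE 0.12, adjusted p = 0.575) and *Meis2* (-0.15, SE 0.056, adjusted p = 0.509). In both genes the 4 Ctr + 4-OHT libraries lay below the 3 Ctr libraries, which 8.66% of all genes kept did in either direction. *Sp9* had 0.30 (interval -0.11 to 0.72). The remaining 5 factors lay close to 0, with *Gsx1* at 0.0079 (interval -0.63 to 0.65), *Gsx2* at -0.079 (interval -0.57 to 0.41), *Nkx2-1* at -0.046 (interval -0.62 to 0.53), *Lhx8* at 0.056 (interval -0.34 to 0.45) and *Lhx6* at -0.0050 (interval -0.27 to 0.26), a sign that turned with upper-quartile normalization. In *Meis2* the 3 groups did not overlap at all, with 270.1 to 284 CPM in Ctr, 241 to 257 CPM in Ctr + 4-OHT and 219 to 234 CPM in *Smg6*-iKO. This pattern, singled out after the values were seen, was met by 0.458% of all genes kept, whatever the order of the groups. The Ctr libraries serve in both comparisons against Ctr, and the *Smg6*-iKO libraries in both of theirs, so the values stand side by side and are not independent.

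Over the 11 libraries, *Sp8* and *Meis2* varied together (Pearson r = 0.83, log2 CPM), and r was 0.36 after removing group means. For *Lhx6*, *Lhx8* and *Sp9*, r was 0.67 between *Lhx6* and *Lhx8*, 0.71 between *Lhx6* and *Sp9* and 0.69 between *Lhx8* and *Sp9*, and 0.58, 0.68 and 0.63 within groups. *Sp8* and *Sp9* had r = -0.37 over all libraries and 0.33 within groups. Of the other pairs, *Gsx2* and *Sp8* had r = 0.66 (0.42 within groups), *Gsx1* and *Nkx2-1* 0.61 (0.49 within groups), and *Gsx1* and *Gsx2* 0.094 (0.64 within groups). Negative values over all libraries were held by *Meis2* with *Gsx1* (-0.57, and -0.60 within groups), with *Nkx2-1* (-0.45, and -0.52 within groups) and with *Sp9* (-0.52, but 0.40 within groups). The pairs were picked after their values were seen, and these are descriptions over 11 libraries, 6 of which share 3 embryos. Among 14828 genes with a mean of at least 1 CPM, the closest to *Sp8* were *Phc2* (r = 0.91), *Sv2c* (0.90) and *Med4* (0.89), and those closest to *Meis2* were *2310022B05Rik* (0.94), *Pias2* (0.92) and *Med4* (0.92). For *Sp9* they were *Otof* (0.95), *Trp53i11* and *Gm10524* (0.94 each), and for *Lhx6* *Pdzd7* (0.95), *Ache* (0.94) and *Slc36a1* (0.93). For *Gsx1* they were *Aen* (0.96), *Zfp688* and *Bax* (0.94 each), for *Gsx2* *Dad1*, *Rps2* (0.92 each) and *Zfp777* (0.91), for *Nkx2-1* *Sbsn* (0.95), *Gcfc2* (0.91) and *Lmbrd1* (0.90), and for *Lhx8* *Mul1*, *Tspoap1* and *Cdc42bpb* (0.88 each).

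Other genes of the same cells and pathways were compared as whole lists, whose calls in *Smg6*-iKO against Ctr stand beside 9.25% of all genes called and 4.98% called lower. Of 10 genes of GABAergic fate, the *Dlx* homeobox genes that act downstream of the eminence factors, the *Gad* genes that make GABA and their partners, 2 were called in *Smg6*-iKO against Ctr, and the median log2 fold change was 0.29 against 0.0055 over all genes. Of these, *Dlx1* rose by 0.44 (SE 0.12, adjusted p = 0.0417 by edgeR). *Gad1*, the most abundant of them, had 0.22 (adjusted p = 0.0987 by edgeR). Against Ctr + 4-OHT none of the 10 was called, 8 were positive, 7 had an unadjusted p under 0.05 by edgeR (16.7% of all genes tested), and the median was 0.34. Of 13 tested genes of ventral forebrain patterning, *Isl1*, a LIM homeobox gene of striatal neurons, rose by 0.51 (SE 0.14, adjusted p = 0.0417), and the 2 most abundant, *Olig1* (0.15) and *Olig2* (0.11), were not called.

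Of 14 genes of MGE-derived interneurons, *Maf*, a transcription factor of cortical interneurons, fell by 0.40 (SE 0.11, adjusted p = 0.0491), and it was the 1 listed gene that also fell in Ctr + 4-OHT against Ctr, by 0.53 (adjusted p = 0.0329), while the abundant *Zeb2* (-0.093) and *Mef2c* (-0.22) were not called. Of 15 tested genes listed for LGE and CGE derivatives, *Pax6* and *Nr2f1* fell, by 0.45 and 0.43 (adjusted p = 0.0166 and 0.0241 by edgeR). The list as a whole did not fall, with 9 values positive and 6 negative and a median of 0.011. Of 12 genes of the sonic hedgehog pathway, which patterns the ventral forebrain, *Gli3*, *Ptch1* and *Smo* fell, by 0.30, 0.31 and 0.24 (adjusted p = 0.0196, 0.0359 and 0.0376 by edgeR), and the most abundant, *Cdon*, had 0.18 (adjusted p = 0.101 by edgeR). Of 12 dorsal forebrain genes, *Dmrta2* and *Lhx2* fell by 0.41 and 0.27 (adjusted p = 0.0142 and 0.0291 by edgeR), and *Neurod6* (0.085) and *Neurod2* (0.21) were not called.

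General markers of progenitors, neurons and other cells were read in the same comparison. Of 12 progenitor markers, 6 fell and none rose, with all 12 values negative and a median of -0.29, where 4.98% of all genes tested were called lower. *Hes5*, a Notch target that maintains progenitors, fell by 1.28 (SE 0.16, adjusted p = 0.00186), *Prom1* by 0.54 (adjusted p = 0.00806) and *Sox1* by 0.31 (adjusted p = 0.0154, all by edgeR). The most abundant, *Vim*, had -0.11, and *Fabp7* fell by 0.29. Of 8 neuron markers none was called, all 8 values were positive and the median was 0.28, with *Tubb3* at 0.42 (adjusted p = 0.0534) and *Map2* at 0.070. Of 6 astrocyte markers, 3 values were positive and 3 negative, with a median of 0.0015. *Gfap* rose by 1.33 (SE 0.32, adjusted p = 0.0288 by edgeR), and the 2 most abundant, *Aldh1l1* (-0.12) and *Aldoc* (-0.25, adjusted p = 0.0788 by edgeR), were not called. The part of these values in those of the 8 factors was not tested. None of 5 tested oligodendrocyte-lineage genes (*Pdgfra* -0.075, *Cspg4* -0.084) and none of 7 tested endothelial and mural genes (*Col3a1* 0.84, *Col1a1* 1.26) was called, and 1 midbrain gene, *En2*, and 1 microglial gene, *Tmem119*, could be tested, with 0.72 and 0.62 and no call. An unadjusted p under 0.05 was found for 5 of 8 neuron, 1 of 5 oligodendrocyte-lineage and 1 of 7 endothelial and mural genes, against 26.9% of all genes tested. Against Ctr + 4-OHT none of the genes of these lists was called by edgeR, with progenitor and neuron medians of -0.15 and 0.064.

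**Figure D5:**
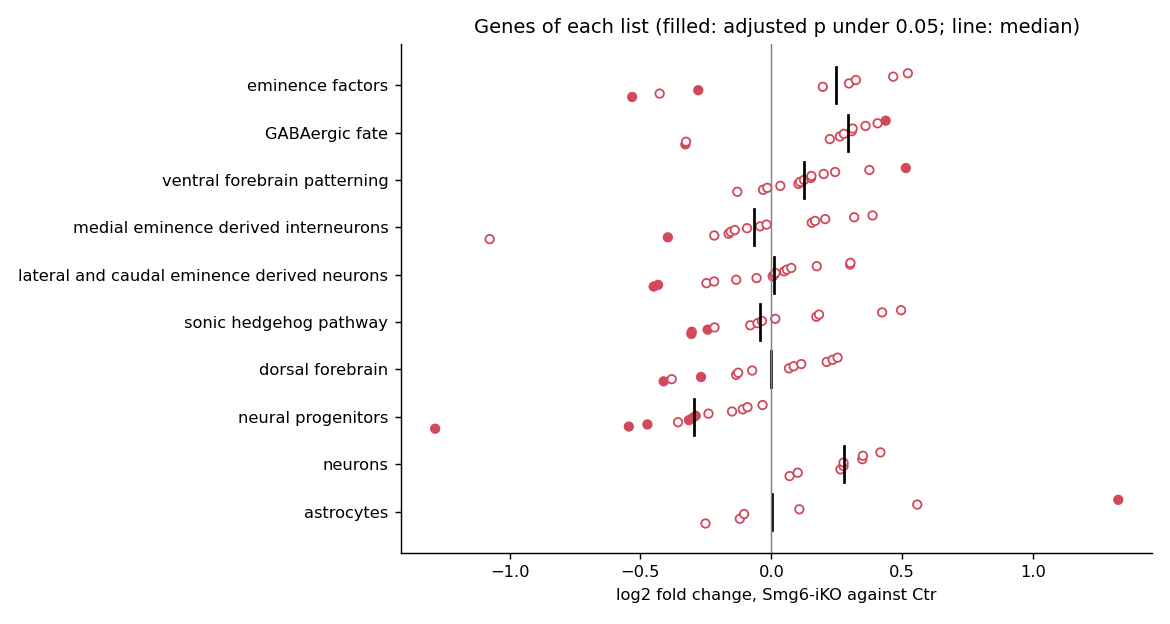
Log2 fold change (horizontal axis) in *Smg6*-iKO against Ctr of each tested gene of the eminence factors and 9 related lists, filled where the adjusted p was under 0.05, with the list median as a line. All 12 progenitor markers lie below 0 and all 8 neuron markers above it, whereas the eminence factors fall on both sides.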

How the data were processed

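Total RNA of NPC cultures was sequenced in 11 libraries as single reads of 50 bases. The authors aligned them to the GRCm38 genome by STAR 2.5.4b and counted, with featureCounts 1.5.0 and Ensembl release 92, stranded reads at one position and in one gene, and deposited the raw counts per gene and library without normalization. The exonic lengths deposited beside the counts gave RPKM. Multi-mapped reads were not counted, so bases that *Sp8* and *Sp9* or other sister genes share may lose reads. Symbols came from GENCODE M21 and matched all 8 genes.

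In R 4.3.3, the 2 groups of a comparison, and no others, entered its fit in edgeR 4.0.16 (filterByExpr, TMM, quasi-likelihood test, Benjamini-Hochberg adjustment over all genes tested, threshold 0.05). All 8 genes passed the filter in every comparison. CPM used TMM over 11 libraries, and log2 values had a prior count of 2. The exact permutation test was two-sided on the difference of mean CPM and took the libraries as unpaired. Correlations were Pearson's r of log2 CPM. The fits were tested on simulated data.

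The members and gene lists were chosen with earlier results of these data known. The rule for the members counted 10 factors and named 8, which were used. Named genes were the 8 members, from each other list the 2 with the highest mean CPM and up to 3 called in either comparison of *Smg6*-iKO by smallest adjusted p, and the 3 genes most correlated with each member. Of these, 3 genes are not reported here and stayed in the fits and list counts. Lists of cells that were hardly detected are given as sums.

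Embryo numbers in the labels pair Ctr and *Smg6*-iKO libraries of one animal. Deviations from group means correlated at 0.33, 0.40 and 0.43 within embryos SMH_128, SMH_132 and SMH_133 (mean 0.38). The mean of -0.13 between different embryos largely follows from the removal of group means and is not a separate contrast. Alternatives were DESeq2 size factors, upper-quartile normalization, low counts kept, at least 10 counts per library, one fit to all libraries, DESeq2 1.42.0, the embryo as a block and each library left out. Each library is a culture of one embryo, and p-values measure the spread between embryos and cultures.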

Additional observations from a re-analysis of the deposited data

Results flagged for a closer look

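The *Sp8* level of *Smg6*-iKO embryo SMH_128, 6.16 CPM, stood apart from the other 3 libraries of its group, which lay between 8.22 and 8.44 CPM. The gap to the nearest was 0.904 of the range of the group, above the 95% critical value of Dixon for 4 samples. It was 1 of 16 groups of 4 libraries looked at, and chance alone picks about 1 in 20. This library was the lowest of the *Smg6*-iKO group in 6 of 8 factors. Without it, *Sp8* still passed in *Smg6*-iKO against Ctr (-0.44, adjusted p = 0.0127 by edgeR).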

How the results depend on the processing

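Under other normalizations, filters, fits and tests, 143 values of the 8 factors kept their direction and side of the threshold, 4 kept their direction but got no adjusted p (*Gsx1* and *Nkx2-1* by DESeq2 in both comparisons of *Smg6*-iKO), 3 passed it (all *Sp9* in *Smg6*-iKO against Ctr) and 2 changed sign, *Lhx6* in Ctr + 4-OHT against Ctr with upper-quartile normalization (0.0028) and no filter (0.0038). With libraries left out, 155 values kept both, 1 passed, 4 no longer passed and 16 changed sign. The sign changes, all in Ctr + 4-OHT against Ctr, gave -0.17 to 0.19 for *Gsx1*, -0.19 to 0.089 for *Gsx2*, -0.25 to 0.12 for *Nkx2-1*, -0.10 to 0.057 for *Lhx6* and -0.044 to 0.13 for *Lhx8*. In *Smg6*-iKO against Ctr, the values ran from 0.11 to 0.45 for *Nkx2-1*, 0.18 to 0.47 for *Lhx8* and 0.12 to 0.26 for *Lhx6*. There *Gsx1* ran from 0.30 to 0.63 and *Gsx2* from -0.54 to -0.27. Against Ctr + 4-OHT, *Smg6*-iKO gave 0.16 to 0.56 for *Nkx2-1* and 0.12 to 0.42 for *Lhx8*. It gave 0.29 to 0.65 for *Gsx1* and 0.15 to 0.31 for *Lhx6*. Between 0 and 3 of the 8 factors were called in *Smg6*-iKO against Ctr with libraries left out. With the embryo as a replicate block 3 were called, and *Sp9* was the 1 factor whose call changed.

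Over all genes, *Smg6*-iKO against Ctr gave 1663 calls, 2714 with no filter, 796 with all libraries in one fit, 3854 with the replicate block and 570 to 2524 with libraries left out. *Smg6*-iKO against Ctr + 4-OHT gave 206 calls, 418 with no filter, 484 in one fit, 873 by DESeq2 and 66 to 174 with libraries left out. Ctr + 4-OHT against Ctr gave 39 calls, 198 with no filter, 60 in one fit, 169 by DESeq2 and 5 to 54 with libraries left out. The cause was not tested. Counts of 11 to 50 per library limit *Gsx1* and *Nkx2-1*.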
